A study of Mus musculus with 12 samples.

Results

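The genes described here are 9 transcripts that mark the lineages of helper and regulatory CD4 T cells, of 18193 genes named by the arrays. They are the Th1 genes Ifng, Tbx21 and Il12rb2, the Th2 genes Il4, Il13, Il5 and Gata3, the Th17 gene Il17a and the regulatory T cell (Treg) gene Foxp3. They were chosen by symbol: a probe set belonged to them when its annotation gave exactly 1 of these names, and each of the 9 genes was named by 1 probe set. All 9 were tested, since no filter on low values was applied.

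Spleens of female mice of the BALB/cJ and BALB/cByJ colonies, inbred sublines of BALB/c, were compared on 12 whole-genome oligonucleotide arrays. Each colony was represented by naïve and by immunized mice, which makes 4 groups, and each group had 3 arrays of 3 different animals. Immunized mice had received a single intraperitoneal injection of human cartilage proteoglycan (PG, given as 100 μg of protein in the labels) with 2 mg of the adjuvant dimethyldioctadecylammonium (DDA) and were examined on day 12, when arthritis is not yet present in this model of rheumatoid arthritis. Naïve mice received neither PG nor adjuvant, so that the effects of antigen and adjuvant cannot be told apart. No genetic alteration is described for either colony, and the mice were age-matched females, for which the sources used here give no age apart from that of the larger arthritis cohort. RNA came from pieces of whole spleen, in which CD4 T cells are 1 population among many, and fewer cells of a type and less RNA per cell cannot be told apart.

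A naïve CD4 T cell that meets its antigen can become an effector cell of one of several lineages, each with a transcription factor that sets the lineage and cytokines that carry out its function. T-bet (Tbx21) directs Th1 cells, which secrete interferon-γ (Ifng). GATA-3 directs Th2 cells, which secrete interleukin-4, interleukin-5 and interleukin-13. Th17 cells secrete interleukin-17, and Foxp3 maintains Treg cells, which restrain the others. Several of these transcripts are also made outside CD4 T cells: natural killer (NK) cells contain Tbx21 and Ifng, and mast cells and basophils make Il4 and Il13.

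The deposited log2 values had been set relative to the median of the 12 arrays for each probe set, so that 0 is the median array by construction and the signal level is not known. Whether a transcript was above background, and which of the 9 was the most abundant, therefore cannot be read from these values. What can be compared is the spread. The standard deviation over the 12 arrays was 0.284 for Ifng, larger than that of 92.1% of the 45037 probe sets tested, and 0.25 for Gata3, 0.233 for Tbx21 and 0.225 for Il4. It was 0.165 for Il12rb2 and for Foxp3 and 0.147 for Il5. Il13 and Il17a varied least, with standard deviations of 0.086 and 0.0845, larger than those of only 10.5% and 9.7% of probe sets.

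Promoter sequences are shown for Ifng, the most variable of the genes, and for Il4, Gata3 and Foxp3, whose values moved together over the arrays as described further on. Each run is the 250 bases before the start of transcription in RefSeq (GRCm38.p6), 5′ to 3′ on the strand of the gene. The promoter table listed 11 starts for the 9 genes, and for each gene the listed start furthest upstream was taken. Capitals mark GGAAA or its complement TTTCC, the core recognised by NFAT, the calcium-dependent factor that follows antigen receptor signalling.
Ifng: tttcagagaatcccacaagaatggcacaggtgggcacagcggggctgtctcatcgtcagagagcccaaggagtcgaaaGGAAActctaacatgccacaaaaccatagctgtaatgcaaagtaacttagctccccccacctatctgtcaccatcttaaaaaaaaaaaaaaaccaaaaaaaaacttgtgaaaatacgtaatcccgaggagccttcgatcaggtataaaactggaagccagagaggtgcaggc
Il4: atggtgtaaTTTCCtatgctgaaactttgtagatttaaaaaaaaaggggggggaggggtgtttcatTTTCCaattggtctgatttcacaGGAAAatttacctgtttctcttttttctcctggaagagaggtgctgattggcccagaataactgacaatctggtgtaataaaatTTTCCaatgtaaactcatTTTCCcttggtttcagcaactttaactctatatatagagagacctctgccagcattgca
Gata3: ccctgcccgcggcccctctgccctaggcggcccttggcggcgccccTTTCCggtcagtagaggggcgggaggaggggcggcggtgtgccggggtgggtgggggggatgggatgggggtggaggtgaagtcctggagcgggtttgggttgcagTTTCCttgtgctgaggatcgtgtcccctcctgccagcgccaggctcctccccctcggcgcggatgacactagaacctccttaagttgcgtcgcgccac
Foxp3: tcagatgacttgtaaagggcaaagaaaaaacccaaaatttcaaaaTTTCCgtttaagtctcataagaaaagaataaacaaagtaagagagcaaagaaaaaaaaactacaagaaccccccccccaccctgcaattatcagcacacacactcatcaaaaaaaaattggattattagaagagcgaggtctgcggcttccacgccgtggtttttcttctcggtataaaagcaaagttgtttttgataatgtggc

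The Ifng run lies at chr10:118440796-118441045 on the plus strand and holds 1 NFAT core, beginning 172 bases before the start. The Il4 run lies at chr11:53618666-53618915 on the minus strand and holds 5, the most of the 9 genes. The Gata3 run lies at chr2:9878601-9878850 on the minus strand, inside the annotated span of the gene, and holds 2, and the Foxp3 run lies at chrX:7579426-7579675 on the plus strand and holds 1. Of the other genes, Il13 had 4 cores, Il5 had 2, Tbx21 had 1, and Il12rb2 and Il17a had none in the same window. The core is common: 55.6% of 27025 promoter windows of the same length held at least 1 on either strand. GATA sites, which were searched on either strand as AGATAA, with G as the last letter as AGATAG, with T as the first as TGATAA and with both changes as TGATAG, were found once each in the windows of Ifng, Il13 and Il5 and at 2 places in that of Foxp3, and 27.1% of all windows held at least 1. The T-box half-site GTGTGA was found only in the window of Il12rb2, and in 12.2% of all windows. These matches describe the letters of the reference and were not compared with the expression values.

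**Figure D1:**
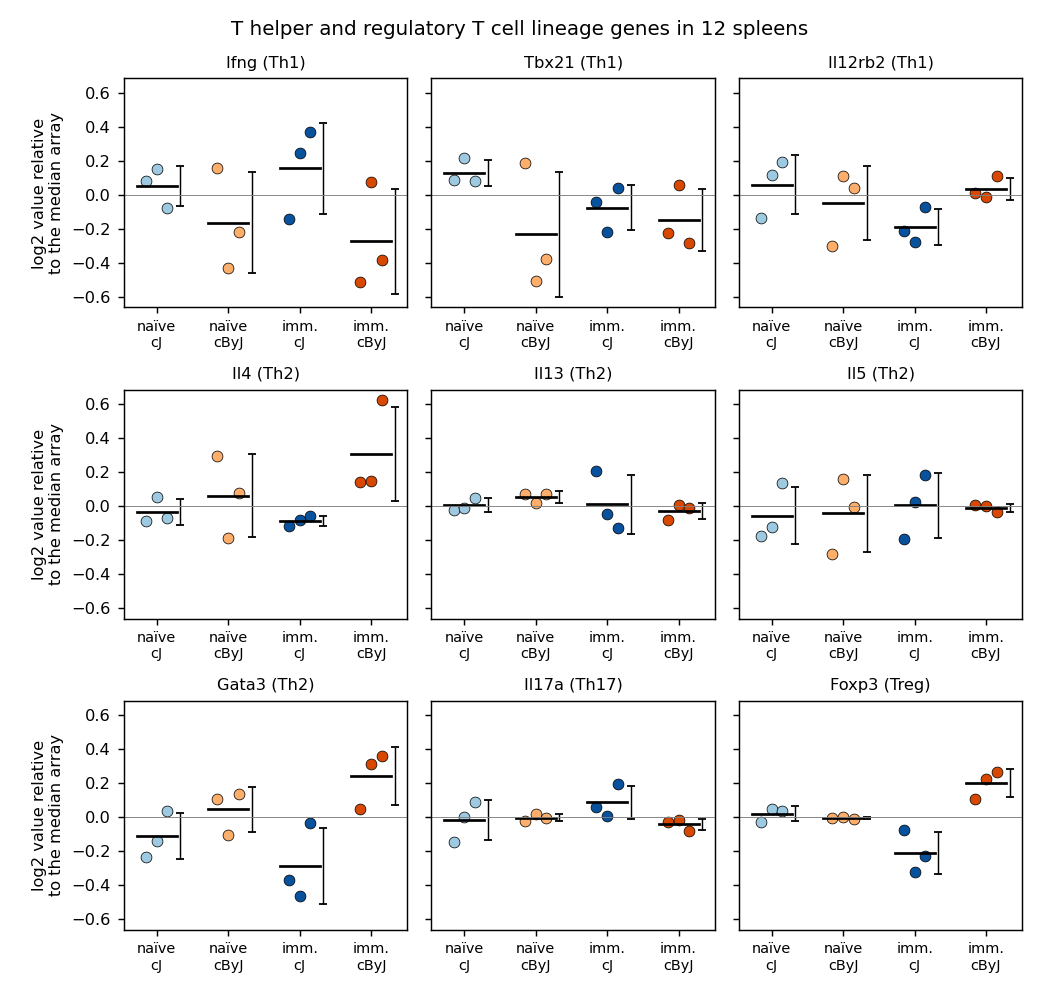
Log2 value of each lineage gene relative to the median array (vertical axis) in naïve and immunized (imm.) BALB/cJ (cJ) and BALB/cByJ (cByJ) spleens, 1 point per array, with the group mean as a horizontal line and the standard deviation (n = 3) as a bar beside it. Foxp3, Gata3, Il4 and Il12rb2 are higher in every immunized BALB/cByJ array than in every immunized BALB/cJ array, and no gene separates the naïve groups.

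Among the Th1 genes, Ifng and Tbx21 had lower means in BALB/cByJ than BALB/cJ mice in both states, and neither passed the test. Ifng, which encodes the cytokine that activates macrophages, was at 0.08, 0.16 and -0.08 in naïve BALB/cJ and at 0.16, -0.43 and -0.22 in naïve BALB/cByJ mice. In immunized mice it was at -0.14, 0.25 and 0.37 in BALB/cJ and at -0.51, 0.08 and -0.38 in BALB/cByJ. The groups overlapped in both states, with 1 BALB/cByJ spleen in each within or above the range of the BALB/cJ spleens. Over both states the log2 difference of Ifng, BALB/cByJ minus BALB/cJ, did not pass (-0.32, 95% confidence interval -0.60 to -0.05, adjusted p = 0.188 from limma).

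Tbx21, the lineage factor, was at 0.09, 0.22 and 0.08 in naïve BALB/cJ and at 0.19, -0.50 and -0.38 in naïve BALB/cByJ mice, so that naïve BALB/cByJ replicate 1 lay among the BALB/cJ arrays and the other two well below them. The log2 difference was -0.36 (SE 0.155, interval -0.70 to -0.02, adjusted p = 0.233). That array also had the highest pancreatic genes of the 12, and without it the log2 difference was -0.57 with an adjusted p of 0.0238, which passed. Without replicate 2 of the same group it was -0.22 (adjusted p = 0.521). With the mean of the erythroid list described below as a covariate it was -0.06 (adjusted p = 0.963). The part of those transcripts in the difference was not tested. In immunized mice Tbx21 was at -0.04, -0.22 and 0.04 in BALB/cJ and at -0.22, 0.06 and -0.28 in BALB/cByJ, and these groups overlapped almost completely (log2 difference -0.07, interval -0.41 to 0.26).

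Il12rb2, the interleukin-12 receptor chain through which cells are driven towards Th1, had the other direction in immunized mice. It was at -0.21, -0.27 and -0.07 in immunized BALB/cJ and at 0.01, -0.01 and 0.11 in immunized BALB/cByJ mice, without overlap. The log2 difference was 0.22 (SE 0.117, interval -0.03 to 0.48, adjusted p = 0.668), and so did not pass. The naïve groups overlapped, at -0.13, 0.12 and 0.20 in BALB/cJ and -0.30, 0.11 and 0.05 in BALB/cByJ.

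Among the Th2 genes, Gata3 was higher in BALB/cByJ than BALB/cJ spleens and was the only one of the 9 genes called in any comparison. It was at 0.05, 0.32 and 0.36 in immunized BALB/cByJ and at -0.36, -0.46 and -0.04 in immunized BALB/cJ mice, without overlap. In naïve mice it was at 0.11, -0.10 and 0.14 in BALB/cByJ and at -0.23, -0.14 and 0.04 in BALB/cJ, with overlap. Over both states the log2 difference was 0.34 (SE 0.0889, interval 0.15 to 0.54, adjusted p = 0.0471), which is 26.9% higher in BALB/cByJ. The call lay close to the threshold. It was lost without naïve BALB/cByJ replicate 1 or 3, naïve BALB/cJ replicate 1 or 2, immunized BALB/cByJ replicate 2 or 3, or immunized BALB/cJ replicate 1 or 2 (adjusted p from 0.0652 to 0.124, log2 differences from 0.30 to 0.34). It was also lost when the mean of a list of NK cell markers was held fixed, a choice made after the data were seen (log2 difference 0.25, adjusted p = 0.939). That fit called 39 of all probe sets over both states, against 2081 in the main fit.

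Il4, the cytokine that turns B cells to IgG1 and IgE, was at 0.15, 0.15 and 0.63 in immunized BALB/cByJ and at -0.12, -0.08 and -0.06 in immunized BALB/cJ mice. The groups did not overlap, and the BALB/cByJ mean rested in part on replicate 3, which held the highest value of any of the 9 genes on any array. The 3 immunized BALB/cJ arrays were tightly grouped, with a standard deviation of 0.0306 against 0.276 in BALB/cByJ. In naïve mice Il4 was at -0.08, 0.06 and -0.07 in BALB/cJ and 0.30, -0.19 and 0.08 in BALB/cByJ, and the spread of the BALB/cByJ arrays enclosed the BALB/cJ arrays.

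The other Th2 cytokines showed no difference of this kind. Il5, the growth factor of eosinophils, had a log2 difference between the colonies of 0.01 (interval -0.26 to 0.29) in naïve and -0.01 (-0.29 to 0.26) in immunized mice. Its arrays ranged from -0.28 to 0.19, and its widest group was naïve BALB/cByJ at -0.28, 0.16 and -0.0029. Il13, which acts on epithelia and smooth muscle, had differences of 0.05 (-0.14 to 0.23) and -0.04 (-0.23 to 0.15), and 11 of its 12 values lay between -0.13 and 0.08. The exception was immunized BALB/cJ replicate 1 at 0.21, the array with the lowest T cell markers described below. Il4, Il13 and Il5 lie in a cluster on chromosome 11 (53612460 to 53618665, 53631323 to 53634702 and 53720794 to 53725103 in GRCm38.p6). Their values did not move together over the arrays: r was -0.08 for Il4 and Il13, -0.30 for Il4 and Il5 and -0.49 for Il13 and Il5. Of 7 measured neighbours of this cytokine cluster on 15 probe sets, none was called in any of the 7 comparisons. The share of all probe sets called in them ran from 0% to 4.62%. The smallest p values were those of Uqcrq, a subunit of the respiratory chain (0.20 with immunization over both colonies, adjusted p = 0.281), and Rad50, a DNA repair gene (0.17 between the colonies over both states, adjusted p = 0.0764).

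Il17a, the cytokine of Th17 cells that draws neutrophils, stayed within 0.20 of the median on every array. It was at 0.06, 0.01 and 0.20 in immunized BALB/cJ and at -0.02, -0.02 and -0.08 in immunized BALB/cByJ mice, without overlap, with a log2 difference of -0.13 (interval -0.30 to 0.04, adjusted p = 0.713). The naïve means were -0.02 in BALB/cJ and -0.001 in BALB/cByJ.

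Foxp3 did not separate the colonies in naïve mice and did so in immunized mice. In naïve mice it was at -0.03, 0.05 and 0.04 in BALB/cJ, and in BALB/cByJ all 3 arrays lay between -0.0086 and 0.0015. In immunized mice it was at -0.07, -0.32 and -0.23 in BALB/cJ and at 0.11, 0.23 and 0.27 in BALB/cByJ. All immunized BALB/cJ arrays therefore lay below, and all immunized BALB/cByJ arrays above, every naïve array. The difference between the immunized colonies was 0.41 (SE 0.0786, interval 0.24 to 0.58), or 32.6% higher in BALB/cByJ, and it had the smallest p of the 9 genes there (adjusted p = 0.114 from limma, unadjusted p = 0.000201), which did not pass.

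Counted together, limma called none of the 9 genes between the naïve colonies, where 4.39% of all probe sets were called, and 1, Tbx21, had an unadjusted p under 0.05, against 18.8% of all probe sets. Between the immunized colonies none was called, against 0.12% of all probe sets, and 4 had an unadjusted p under 0.05 (Ifng, Il4, Gata3 and Foxp3), against 7.92%. Over both states 1 was called, Gata3, against 4.62% of all probe sets. The one-way analysis of variance over the 4 groups that the methods name called none of the 9, where its comparisons of the colonies called 0.149% of all probe sets in naïve and 0.158% in immunized mice, and its smallest adjusted p values were 0.124 for Foxp3 and 0.251 for Gata3. Groups that did not overlap were found for 5 of the 9 genes between the immunized colonies, with Il12rb2, Il4, Gata3 and Foxp3 higher and Il17a lower in BALB/cByJ, against 15% of all probe sets. Between the naïve colonies they were found for none, against 21.7%. The median size of the log2 difference of the 9 genes was 0.22 between the immunized colonies, beside 0.08 over all probe sets, and 0.09 between the naïve colonies, beside 0.11. With 3 arrays per group the intervals of these differences reached as far as 0.39 on either side.

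**Figure D2:**
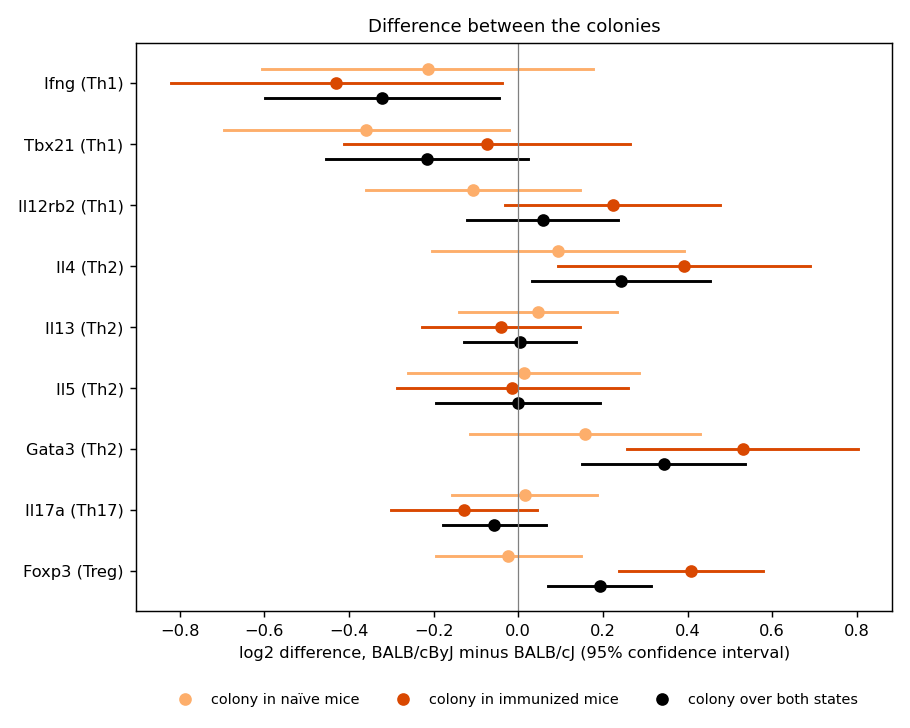
Log2 difference of each lineage gene between the colonies, BALB/cByJ minus BALB/cJ (horizontal axis), for naïve mice, for immunized mice and for both states combined, with 95% confidence intervals from the limma fit over 12 arrays. Gata3 (0.53) and Foxp3 (0.41) lie farthest to the right in immunized mice, and Ifng (-0.43) farthest to the left.

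The immunized arrays fell into a first run of sample numbers, 29 to 33, with 2 BALB/cByJ and 1 BALB/cJ array, and a second, 48 to 50, with 1 BALB/cByJ and 2 BALB/cJ arrays. No source describes these runs as batches. Within the first run Foxp3 was 0.24, Gata3 0.55, Il4 0.27 and Il12rb2 0.21 higher in BALB/cByJ on the log2 scale, and within the second 0.54, 0.61, 0.69 and 0.28 higher. Since these 4 genes do not overlap between the immunized colonies, their order within each run is fixed, and the within-run values are no check on an effect of the run. Ifng differed by -0.08 in the first run and by -0.69 in the second. The naïve arrays, numbered 10 to 15, form a run of their own, and immunization cannot be told apart from it.

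No lineage gene passed the test for a change with immunization in either colony or over both. In BALB/cJ none was called and 1 had an unadjusted p under 0.05, against 0% and 9.19% of all probe sets (limma). In BALB/cByJ none was called and 1 had an unadjusted p under 0.05, against 0.0511% and 8.3%. Over both colonies none was called and none had an unadjusted p under 0.05, against 0.0466% and 9.91%. The 1 gene was Foxp3 in each colony. It was 14.6% lower in immunized than in naïve BALB/cJ mice (log2 difference -0.23, SE 0.0786, interval -0.40 to -0.06, adjusted p = 0.432) and 15.2% higher in immunized than in naïve BALB/cByJ mice (0.20, interval 0.03 to 0.37, adjusted p = 0.548). Over both colonies the log2 difference was -0.01 (-0.13 to 0.11).

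The estimates of 7 other genes also had opposite signs in the colonies, all with intervals that contain 0. Among them were Gata3, at -0.18 (-0.45 to 0.10) in BALB/cJ and 0.20 (-0.08 to 0.47) in BALB/cByJ, Il12rb2, at -0.25 (-0.50 to 0.01) and 0.08 (-0.17 to 0.34), and Il4, at -0.05 (-0.35 to 0.24) and 0.24 (-0.05 to 0.54). Ifng, Tbx21, Il13 and Il17a were the rest, and only Il5 had the same sign in both. Naïve and immunized arrays did not overlap for Tbx21 and Foxp3 in BALB/cJ, both lower after immunization, where 17% of all probe sets did not overlap. In BALB/cByJ they did not overlap for Il13, lower, and Foxp3, higher, where the share was 12.1%.

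The difference between the responses of the colonies was tested directly. It was largest for Foxp3, at 0.43 (SE 0.111, interval 0.19 to 0.67, unadjusted p = 0.00205), and after adjustment it did not pass (adjusted p = 0.491 from limma). None of the 9 lineage genes passed, where 0% of all probe sets were called, and 1 had an unadjusted p under 0.05, against 7.59%. Gata3 and Il12rb2 followed at 0.37 (-0.01 to 0.76) and 0.33 (-0.03 to 0.69).

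**Figure D3:**
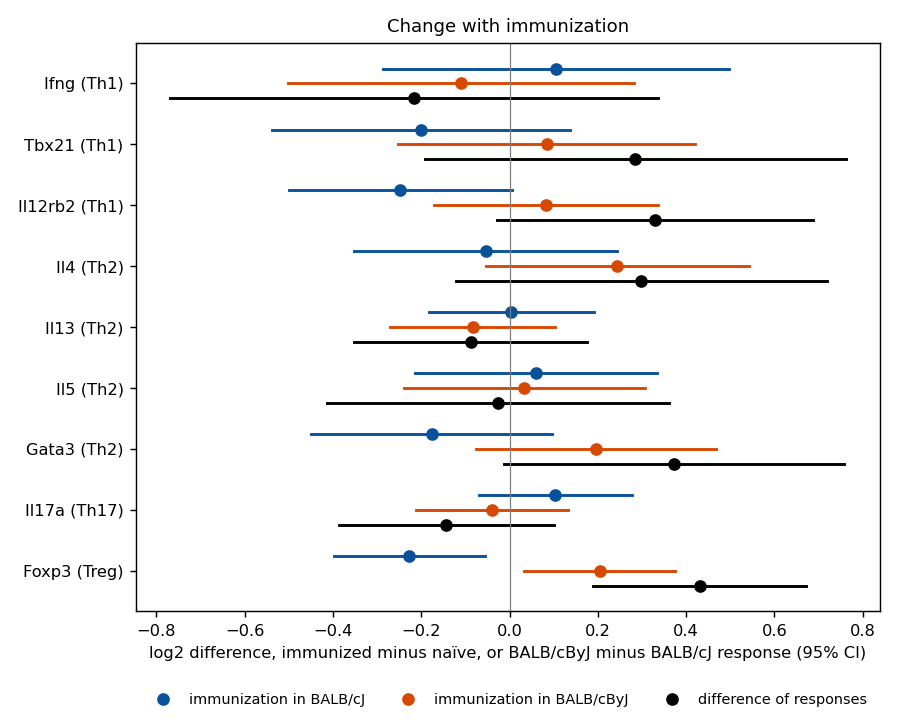
Log2 change of each lineage gene with immunization (immunized minus naïve, horizontal axis) in BALB/cJ and in BALB/cByJ, and the BALB/cByJ minus BALB/cJ difference of these responses, with 95% confidence intervals from the limma fit. The 2 intervals of Foxp3 lie on opposite sides of 0, at -0.23 in BALB/cJ and 0.20 in BALB/cByJ.

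Across the 12 arrays, which share their group structure, the genes fell into patterns that crossed the lineages. The closest pair was Gata3 and Foxp3, a Th2 and a Treg factor (Pearson r = 0.79, Spearman rho = 0.70). Il4 followed Gata3 (r = 0.74, rho = 0.83) and Foxp3 (r = 0.65, rho = 0.61). Tbx21 and Ifng, factor and cytokine of Th1 cells, had r = 0.69 and rho = 0.65. Ifng and Foxp3 had r = -0.56, and Tbx21 and Gata3, whose proteins oppose each other in T cells, had r = -0.05. These values describe 12 arrays from 4 groups and no test was attached to them.

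**Figure D4:**
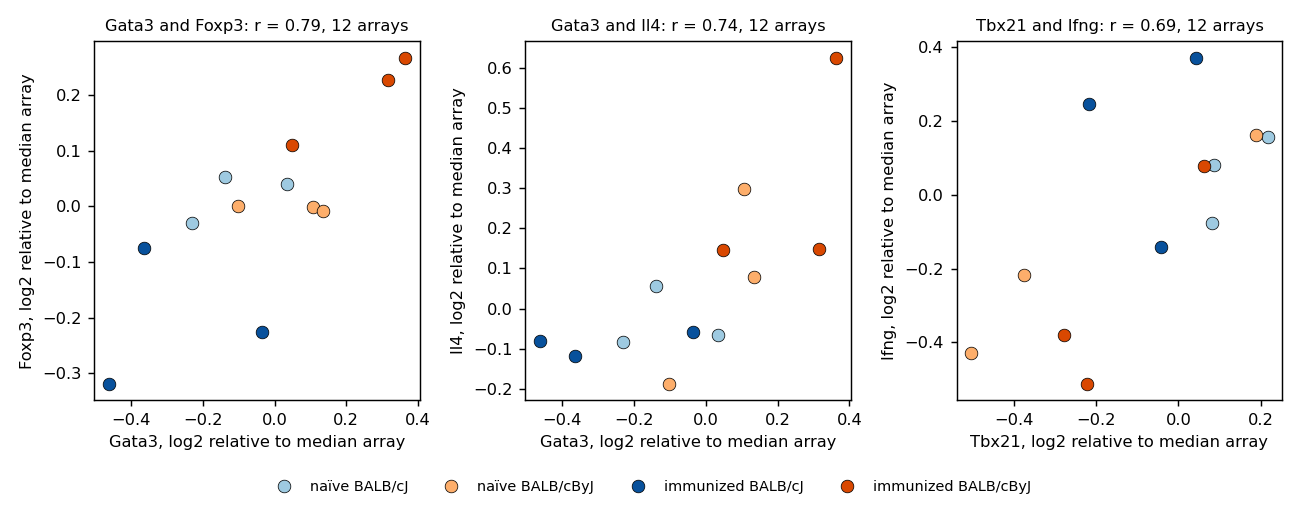
Values of 3 pairs of lineage genes on the same arrays, each axis the log2 value relative to the median array and each point 1 of 12 spleens, coloured by group. For Gata3 and Foxp3 (r = 0.79) the immunized BALB/cJ arrays lie lowest and the immunized BALB/cByJ arrays highest on the Foxp3 axis. On the Gata3 axis both immunized groups overlap the naïve arrays.

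Of 18192 other genes, those with values most like Foxp3 over the 12 arrays were Wwox (r = 0.90) and Phc1 (0.89), those most like Gata3 were Tbc1d10b (0.92) and Mink1 (0.90), and those most like Il4 were Fbrs (0.92) and Msl1 (0.89). For Ifng they were Elmod2 (0.91) and Dync1li1 (0.82), for Tbx21 Trim47 (0.90) and Tnfaip1 (0.89), and for Il12rb2 Prrt1 (0.89) and Nphs1 (0.88). For Il13 they were Cd209g (0.86) and Npr1 (0.86), for Il5 Capn12 (0.93) and Htr5a (0.92), and for Il17a 1700001D01Rik (0.93) and Klf14 (0.87). No lineage gene was among the 2 closest of another. Each is among the highest of 18192 coefficients over only 12 arrays and is given as a description.

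In the wider lists of lineage genes, all the calls between the colonies other than Gata3 were lower in BALB/cByJ. In naïve mice 2 of 24 Th1, 2 of 36 Th2, 2 of 41 Th17 and 2 of 41 Treg probe sets were called, where 4.39% of all probe sets were called, and over both states 2, 3, 0 and 5, where the share was 4.62%. The counts of the Th2, Th17 and Treg lists in naïve mice lie near the share over all probe sets, and the genes below are given as single genes. In the Th1 list, 2 of 19 measured genes were lower in naïve BALB/cByJ mice: Cxcr3, the chemokine receptor that leads Th1 cells into inflamed tissue (log2 difference -0.39, SE 0.0806, adjusted p = 0.021), and Havcr2, which encodes the inhibitory receptor Tim-3 (-0.62, SE 0.108, adjusted p = 0.0114). Both were also lower over both states, at -0.29 and -0.41. The median difference of the 24 probe sets of this list was -0.21 in naïve mice, beside -0.01 over all probe sets, and -0.08 in immunized mice, where none was called and 8 had an unadjusted p under 0.05.

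In the Th2 list, 2 of 22 measured genes were lower in naïve BALB/cByJ mice, and both are receptor chains for interleukin-4 and interleukin-13: Il4ra (-0.36, adjusted p = 0.0163, 1 of its 3 probe sets) and Il13ra1 (-0.50, adjusted p = 0.0497, 1 of 5). The other probe sets of Il4ra were at -0.30 and 0.08 and those of Il13ra1 between -0.50 and 0.01, so that 1 probe set of each stood apart from the rest near 0. Over both states Il13ra1 was lower on 2 probe sets (-0.42 and -0.41), while Gata3 was higher. The median of the 36 probe sets was -0.06 in naïve and -0.04 in immunized mice.

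In the Th17 list, 2 of 17 measured genes were lower in naïve BALB/cByJ mice. Irf4, a transcription factor of activated lymphocytes, was at -0.38 on 1 probe set (adjusted p = 0.0424) and at -0.26 on another (adjusted p = 0.544). Il1r1, the receptor of interleukin-1, was at -0.42 (adjusted p = 0.0242). No gene of this list was called over both states or in immunized mice. In the Treg list, Nrp1, a surface marker of Treg cells that arise in the thymus and also of dendritic and endothelial cells, was lower in naïve BALB/cByJ mice on 2 of its 4 probe sets (-0.50 and -0.48, adjusted p = 0.0237 and 0.0378). Over both states Nrp1 (-0.31 and -0.36), Itgae, the integrin chain CD103 (-0.38 and -0.42, adjusted p = 0.036 and 0.0382), and Entpd1, the ectonucleotidase CD39 (-0.34, adjusted p = 0.0438), were lower, 3 of 20 measured genes. The direction of these was opposite to that of Foxp3, which was 0.19 higher over both states without passing (adjusted p = 0.0722).

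None of the 4 lineage lists held a call between the immunized colonies, with immunization or in the difference of responses. In these comparisons the share of all probe sets called was itself only 0% to 0.12%. By limma at an unadjusted p under 0.05, probe sets of the Th1, Th2, Th17 and Treg lists numbered 8 of 24, 4 of 36, 2 of 41 and 6 of 41 between the immunized colonies, beside 7.92% of all probe sets. For the difference of responses they numbered 3, 3, 7 and 9, beside 7.59%, and for immunization in BALB/cByJ 3, 5, 5 and 7, beside 8.3%. The lists contain the 9 genes.

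Markers of other cells moved with some of these values, and their part in the results was not tested. The mean of 17 T cell markers was lowest in immunized BALB/cJ replicate 1, at -0.40, and lay between -0.14 and 0.11 in the other 11 spleens. None of these markers was called in any comparison, where the share of all probe sets ran from 0% to 4.62%. The smallest p values were those of Cd247 (0.23 over both states, adjusted p = 0.0725), the ζ chain of the T cell receptor complex, and Cd5 (-0.38 between the naïve colonies, adjusted p = 0.081). Between the immunized colonies 6 of the 33 probe sets were higher in BALB/cByJ at an unadjusted p under 0.05 from limma and none lower, against 7.92% of all probe sets. Their median difference was 0.15, beside -0.01 over all probe sets. For the difference of responses 6 were also higher and none lower, against 7.59%, with a median of 0.19. The spleen with the lowest T cell mean held the highest Il13 value, and over the 12 arrays Il13 had r = -0.87 with the T cell list. Foxp3 had r = 0.12 and Gata3 r = 0.38 with it. With the T cell list held fixed, Foxp3 differed by 0.46 between the immunized colonies (adjusted p = 0.0873) and Gata3 by 0.34 over both states (adjusted p = 0.063).

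The mean of 11 NK cell markers lay between -0.28 and -0.22 in immunized BALB/cByJ and between 0.0003 and 0.11 in immunized BALB/cJ spleens. None of these markers was called there. The split of arrays is the same as that of Gata3, Il4 and Foxp3, with the opposite sign. Of all probe sets, 15% separated these groups without overlap. In naïve spleens the list mean lay between -0.35 and 0.07 in BALB/cByJ and between 0.03 and 0.34 in BALB/cJ. Prf1, perforin, was lower in naïve BALB/cByJ mice (-0.56, adjusted p = 0.027), and Prf1, Ncr1, an activating NK receptor, and Gzma, granzyme A, were lower over both states (-0.46, -0.48 and -0.56). The list had r = -0.65 with Gata3, -0.60 with Il4, -0.48 with Foxp3, 0.49 with Ifng and 0.43 with Tbx21. With it as a covariate the log2 difference of Foxp3 between the immunized colonies was 0.39 (adjusted p = 0.99), against 0.41 without it. That fit called 25 of all probe sets there, against 54 without the covariate. Since the list mean itself separates the immunized colonies, its part cannot be told apart from that of the colony.

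The mean of 11 mast cell and basophil markers, cells that also make Il4, lay between 0.0002 and 0.22 in immunized BALB/cByJ spleens. In immunized BALB/cJ spleens it lay between -0.18 and -0.12. The list mean thus separated these groups in the direction of Il4, where 15% of all probe sets did not overlap in either direction. None of these markers was called there, against 0.12% of all probe sets. The part of these cells in the Il4 values cannot be told apart from that of the colony and was not tested. In naïve mice the list mean ranged from -0.27 to 0.69 in BALB/cByJ and from -0.15 to 0.67 in BALB/cJ. The highest BALB/cByJ array was replicate 1, where Il4 was at 0.30, and the highest BALB/cJ array was replicate 3, where Il4 was at -0.07. Over the 12 arrays the list had r = 0.20 with Il4. Its only called gene was Kit, the stem cell factor receptor, lower in naïve BALB/cByJ mice on 2 probe sets (-0.40 and -0.38). B cell markers included 1 called gene, Fcer2a, the low-affinity IgE receptor, lower in naïve BALB/cByJ mice (-0.43, adjusted p = 0.0396). Of 16 myeloid markers on 18 probe sets, only Siglech, of plasmacytoid dendritic cells, was called between the naïve colonies, higher in BALB/cByJ (0.52). The list as a whole went the other way there, with a median of -0.36 beside -0.01 over all probe sets. By limma 8 of its probe sets were lower and 1 higher at an unadjusted p under 0.05, against 18.8% of all probe sets. Camp, Ngp and Mpo, proteins of neutrophil granules, were higher in immunized mice over both colonies (1.55, 1.32 and 1.46, adjusted p = 0.0373, 0.0395 and 0.0495).

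Transcripts of red cell precursors differed between the naïve spleens. Of 19 erythroid genes, 17 were called higher in naïve BALB/cByJ mice, where 4.39% of all probe sets were called. Among them were Gata1, the factor of that lineage (1.30), and Add2, Tspo2 and Rhag (1.93, 1.85 and 1.86). The mean of the list lay between 0.18 and 0.70 in naïve BALB/cByJ and between -1.45 and -0.29 in naïve BALB/cJ spleens. It had r = -0.70 with Tbx21, -0.52 with Ifng and 0.36 with Gata3. With it as a covariate Gata3 differed by 0.36 over both states (adjusted p = 0.663). Tbx21 differed by -0.06 between the naïve colonies (adjusted p = 0.963) and by -0.02 over both states, against -0.36 and -0.22 without the covariate. That fit called 50 of all probe sets over both states, against 2081 in the main fit. Pancreatic genes were high in naïve BALB/cByJ replicate 1 (list mean 2.33), and Prss2, trypsinogen, was higher in naïve BALB/cByJ mice on 2 probe sets (0.98 and 0.95). Pigment cell genes were high in 4 spleens, with list means up to 2.44, and without these arrays, which leaves naïve BALB/cJ with 1 array that is assumed to vary like the others, Gata3 differed by 0.23 over both states (adjusted p = 0.821).

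**Figure D5:**
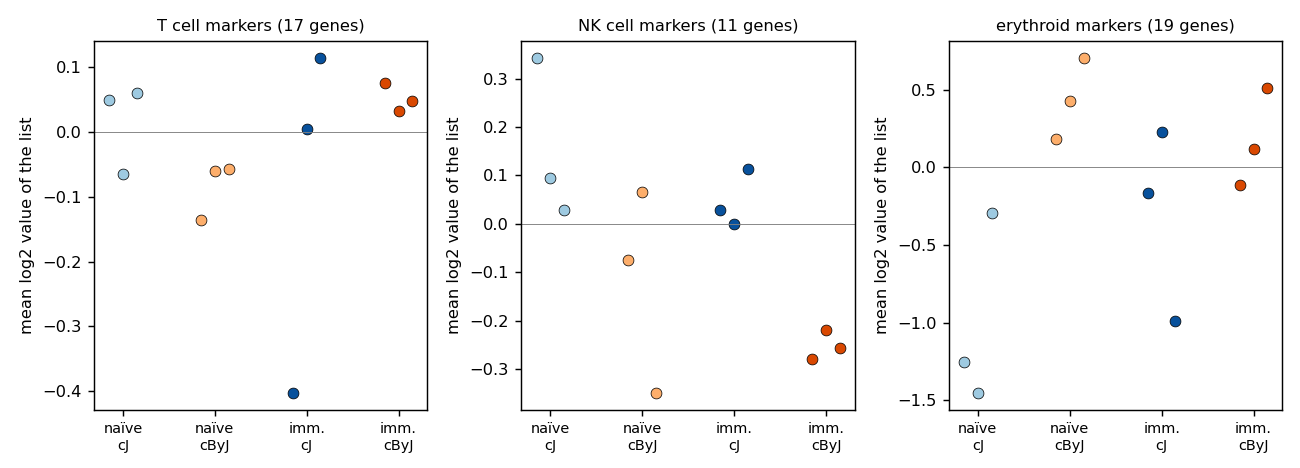
Mean log2 value, relative to the median array, of the T cell (17 genes), NK cell (11 genes) and erythroid (19 genes) marker lists in each spleen by group (1 point per array). Immunized BALB/cJ replicate 1 stands alone at -0.40 in the T cell panel, and the immunized BALB/cByJ spleens lie at -0.22 or below in the NK cell panel.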

How the data were processed

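Total RNA of pieces of spleen was measured on 12 whole-genome arrays, 3 for each group. The authors summarized probe intensities by robust multi-array averaging (RMA, by quantile normalization followed by median polish) in GeneSpring GX, and the deposited log2 values have each probe set's median over the 12 arrays subtracted. Medians lay within 5e-07 of 0. The file does not state the base of the logarithm, which was read as 2 from the method. No values of other samples were present.

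The table has 45101 probe sets, of which 45037 were tested after removal of 64 controls. The limma package (3.58.1, R 4.3.3) gave 7 contrasts from 1 fit of all 12 arrays (lmFit on the 4 group means and eBayes). Calls were made at a Benjamini-Hochberg adjusted p under 0.05, the adjustment running over all 45037. SE is the standard error of the fitted difference and intervals are 95% confidence intervals. No array was a copy of another (the difference of the closest pair had a standard deviation of 0.173). The number of arrays limits the precision.

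Probe sets took gene names from GEO's annotation of the array, which named 1 gene for 34945, several for 932 and none for 9160. Coordinates and promoters came from RefSeq tables of GRCm38.p6. Named from each list were up to 4 called members per contrast with the smallest p, or the 2 with the smallest p where none was called, and for each lineage gene the 2 genes most alike by Pearson's r. Erythroid examples follow the same rule. The 9 genes, the lists and the tests were chosen with earlier results of these data known. Alternatives were the methods' one-way analysis of variance, other variance and normalization settings, blocks, covariates, a gene-level fit and the omission of arrays. The fit was tested on simulated data. Python 3.11.15 with matplotlib 3.10.9 and pandas 2.3.3 drew the figures.

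The methods of the colony study and the labels of the arrays differ on the PG dose, and the labels were followed.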

Additional observations from a re-analysis of the deposited data

Results flagged for a closer look

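The response of Foxp3 to immunization differed in direction between the colonies. Every immunized BALB/cJ spleen lay below, and every immunized BALB/cByJ spleen above, the mean of its naïve colony. The difference of the responses was 0.43 on the log2 scale (SE 0.111, unadjusted p = 0.00205), and the test of this difference did not pass after adjustment over all probe sets (adjusted p = 0.491 from limma). Over the alternatives it ranged from 0.37 to 0.52 and was not called by any of the 26 that gave it a value (adjusted p from 0.121 to 1). The probe set of Foxp3 has the suffix of sets that match several transcripts of 1 gene.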

How the results depend on the processing

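The 17 alternatives and the omission of each of the 12 arrays gave 1752 values for the 9 genes. The array with the highest pancreatic genes is naïve BALB/cByJ replicate 1, so its omission is counted under both. Of these, 1729 kept their direction and their side of the threshold or differed only in sign with both unadjusted p values at or above 0.05 (122 values), 14 lost and 9 gained a call, and none reversed. The number of lineage genes called in naïve mice, 0, became 1 (Tbx21) with array weights and without the array with the highest pancreatic genes. These fits called 13.2% and 5.48% of all probe sets there. The number lay between 0 and 1 when each array was left out. The number called between the colonies over both states, 1, became 4 with array weights (Ifng, Tbx21, Gata3 and Foxp3). Of all probe sets 10.1% were called there, against 4.62% in the main fit. At the level of genes the number became 2 (Gata3 and Foxp3), where 7.67% of all genes were called. It became 0 against a fold of 1.2, with the T cell, the erythroid or the NK cell list mean as a covariate (the last added after the data were seen), and on omission of the 4 spleens with high pigment cell genes, and lay between 0 and 1 when each array was left out. Of all probe sets, the fold of 1.2 called 0.142% and the T cell, erythroid and NK cell covariates 4.14%, 0.111% and 0.0866%. Without the array with the highest pancreatic genes, Tbx21 (-0.32, adjusted p = 0.0348) was called in place of Gata3 (0.33, adjusted p = 0.0652). Gata3 over both states ranged from 0.23 to 0.41 and was called in 13 of 27 alternatives. The causes were not tested.

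With the replicate number as a block, Gata3 over both states was at 0.34 (adjusted p = 0.0234) and no number of calls of the 9 genes changed. The numbers do not pair the samples: correlations of the deviations of same-numbered arrays ran from -0.264 to 0.368.

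The number of probe sets called between the naïve colonies was 1976 and ranged from 15 to 5950 over the alternatives, and over both states 2081 with a range of 38 to 4557. The lowest of each came from the fit without the pigment-high spleens, which leaves 1 naïve BALB/cJ array. When each array was left out, the counts ran from 161 to 2470 and from 620 to 2609. Both fell by over 1.5 times without naïve BALB/cByJ replicate 3 (265 and 848) or naïve BALB/cJ replicate 1 (232 and 741) or 2 (161 and 620), and the first also without naïve BALB/cByJ replicate 2 (1285), the second also without immunized BALB/cByJ replicate 2 (794) or 3 (901) or immunized BALB/cJ replicate 1 (1238) or 3 (979). Between the immunized colonies it was 54 (17 to 88). It was 0 with immunization in BALB/cJ (0 to 651), 23 in BALB/cByJ (3 to 44), 21 over both colonies (0 to 85) and 0 for the difference of responses (0 to 10). Foxp3 had no value without probe sets of its suffix, and Il13 and Il17a none when the 25% of probe sets that varied least were left out. No signal level was available, so a filter on dim probe sets could not be run.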
